A study of Mus musculus with 8 samples.

Results

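The keratin genes were taken as the protein-coding genes of the GENCODE M21 annotation whose symbol is Krt followed by a number. The rule found 49 genes among 21951 protein-coding genes, 25 in a cluster on chromosome 11 and 24 in a cluster on chromosome 15. All genes of the first cluster are type I keratins, and all but Krt18 of the second are type II. Krt6a, Krt6b, Krt33a and Krt33b end in a letter and were outside the rule, and Krt74 is annotated as a pseudogene. Chromatin accessibility at these genes was read from ATAC-seq, in which the transposase Tn5 cuts and tags open DNA, so that open stretches pile up as peaks.

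Keratins are the intermediate filament proteins of epithelial cells. A type I and a type II keratin pair to build each filament, so that cells express matched partners. In the mammary gland Krt8 and Krt18 are the classical pair of luminal cells and Krt5 and Krt14 that of basal cells, while Krt16 and Krt17 appear in stressed or wounded epithelia. Many of the remaining genes belong to skin, mucosa, hair and the inner sheath of the hair root.

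The cells came from cell lines derived from mouse mammary tumors driven by polyoma middle T antigen (PyMT), on the strain labelled FBV/N, and were grown in DMEM with serum. They were WT or carried a conditional knockout of Lats1 (Lats1-CKO), which encodes a kinase of the Hippo pathway. Both genotypes carry PyMT, and no sample lacks it. What drove the deletion, and which exons it removed, is not given in the sources used here. Cells were sorted by the surface proteins EpCAM and CD49f into a luminal population (high in both) and a basal-like population (low EpCAM, high CD49f) and were expanded briefly in culture. Each of the 4 groups had 2 libraries, named as the authors named them. The WT luminal group held BM1 and BM5 and the WT basal-like group BM2 and BM6. The Lats1-CKO luminal group held BM3 and BM7 and the Lats1-CKO basal-like group BM4 and BM8. The study calls the libraries of a group biological replicates. The labels do not say whether they came from separate cell lines or cultures, and the tests measure the spread between these libraries.

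The lists held 14753 to 99022 peaks. BM3 stood apart with 14753, while the other 7 held at least 51497. The lists carry no read counts, so the depth of each library is unknown and no counting interval can be given. The score of a peak is not comparable between libraries and was turned into a percentile among all peaks of its own library (100% is the highest score), with 0 for no peak. The percentile still depends on how many low-scoring peaks a library lists. Epcam, whose protein defined the sort, had no promoter peak in BM4 or BM8 and percentiles of 22.5% to 88.0% in the other 6 libraries. Itga6, which encodes CD49f, had one in all 8. The p63 gene Trp63, a defining marker of basal cells, had none in any library. The Lats1 start site had a peak in 7 libraries (not BM3), which says nothing about the deletion.

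Of the 49 keratin genes, 16 (32.7%) had a peak within 1 kb of an annotated transcription start site (TSS) in at least 1 library, against 66.4% of all protein-coding genes. By library the share was 24.5% (BM1), 14.3% (BM5), 22.4% (BM2), 16.3% (BM6), 6.12% (BM3), 28.6% (BM7) and 16.3% (BM4 and BM8 alike). It lay below the share of all protein-coding genes, 34.3% to 58.7%, in each of the 8 libraries. Only 3 keratin genes, Krt8, Krt14 and Krt16, had a promoter peak in all 8, which is 6.12% of the family against 32.2% of protein-coding genes. The median GC content of the 250 bp upstream of the outermost TSS was 49.6% for the keratin genes and 54.0% for 21938 protein-coding genes on the nuclear chromosomes, and the median number of CpG dinucleotides was 4 against 8. Keratin genes with and without a peak at any TSS had medians of 56.2% and 48.4% GC in this sequence, but of 2 and 4 CpG dinucleotides. Krt7, Krt10 and Krt32, counted as having a peak, had none within 1 kb of the outermost TSS.

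**Figure D1:**
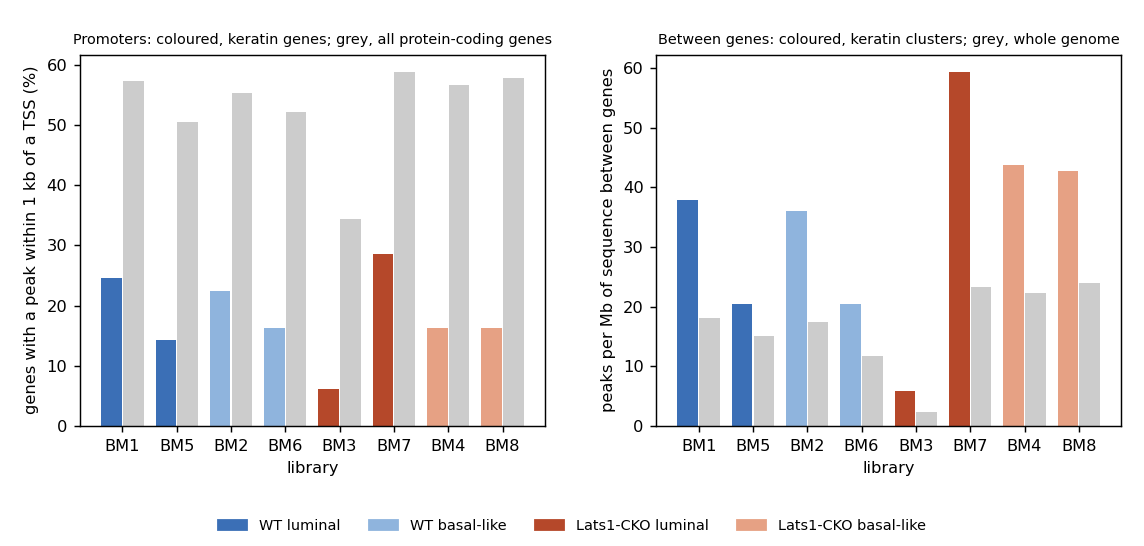
Left, the share of genes (%) whose TSS had a peak no more than 1 kb away, by library, for the 49 keratin genes (coloured by group) and all protein-coding genes (grey). Right, peaks per Mb of sequence between genes in the keratin clusters (coloured) and in the whole genome (grey). In every library the keratin bar is the lower one on the left and the higher one on the right, and BM3 is lowest on both sides.

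The genes with a peak fell unevenly over the roles of the family. Among the 6 keratins of simple epithelia, 4 had a promoter peak in some library (Krt7, Krt8, Krt18, Krt19) and Krt20 and Krt23 had none. Among the 5 keratins of basal cells and stress, 4 had one (Krt5, Krt14, Krt16, Krt17) and Krt15 had none. Only 4 of 13 keratins of differentiating stratified epithelia had one (Krt10, Krt13, Krt79, Krt80), and Krt1, Krt2, Krt4, Krt9, Krt12, Krt24, Krt76, Krt77 and Krt78 had none. Of 13 hair keratins, 3 had one (Krt32, Krt86, Krt87), and Krt31, Krt34, Krt35, Krt36, Krt39, Krt40, Krt81, Krt82, Krt83 and Krt84 had none. No peak lay within 1 kb of a TSS of any of the 8 keratins listed for the inner root sheath and adjoining hair follicle layers (Krt25, Krt26, Krt27, Krt28, Krt71, Krt72, Krt73, Krt75). Of the remaining 4 genes, Krt42 had one, and Krt88, Krt90 and Krt222 had none. Within 5 kb, 15 of the 49 genes still had no peak in any library. These roles describe where each keratin is known to be made and rest on no value of these libraries.

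**Figure D2:**
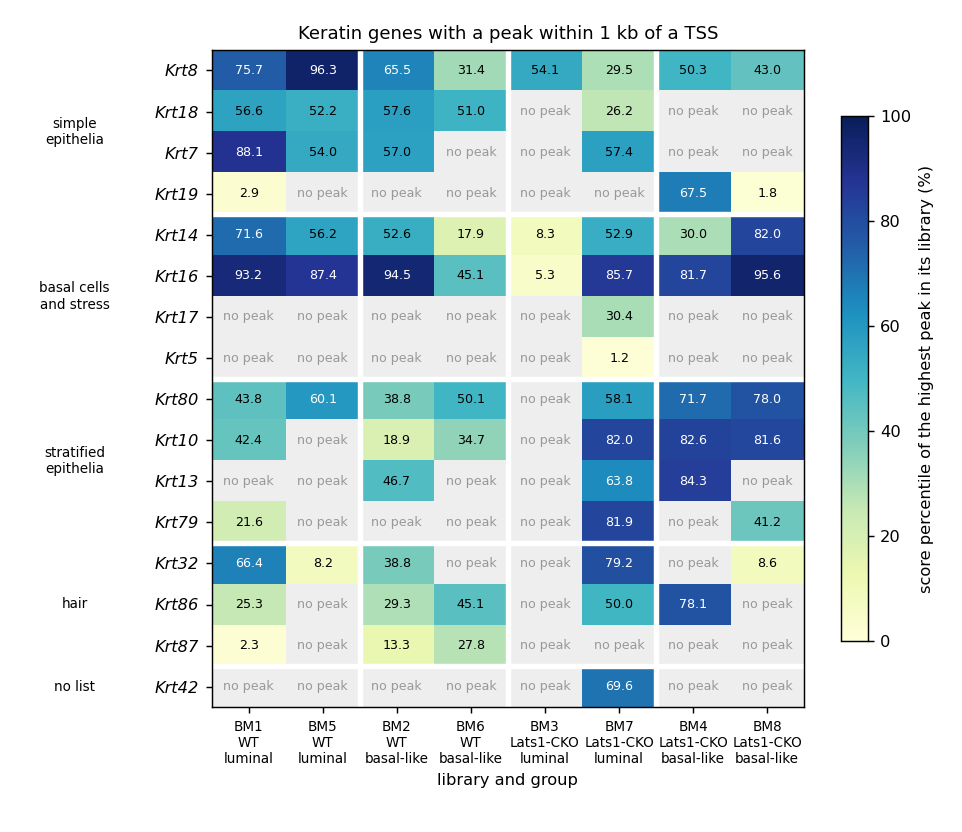
Score percentile (%) of the highest peak within 1 kb of a TSS, in each of the 8 libraries (columns, 2 for each group), for the 16 keratin genes with such a peak in any library (rows, grouped by role). Krt8, Krt14 and Krt16 are filled in every column, and Krt18 is filled in all 4 WT libraries but only in BM7 among the Lats1-CKO ones.

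The stretches of DNA on which the results for the marker genes turn are given here, so that each can be set beside its values. They were read from the GRCm38.p6 assembly and are printed 5′ to 3′ in the direction in which the named gene is transcribed. Each has 250 bp, overlaps no annotated exon or UTR, and is either the sequence just upstream of the first exon (Krt18, Krt14) or the centre of a region merged from the peaks of all libraries. Capitals mark matches, on either strand, to letters bound by factors known in mammary cells. The letters searched were TGANTCA for AP-1 and, for the TEAD factors that partner YAP and TAZ, GGAATG. Grainyhead-like factors (GRHL) were searched as AACNNGTT and the E-box as CAGGTG. Letters of the GATA factors were AGATAA, and those of the RUNX factors were TGTGGT. For C/EBP the letters were TTNNGNAA, and for the KLF/SP factors of GC-rich promoters they were GGGCGG. The Krt18 promoter is at chr15:102027930-102028179 (plus strand), the Krt8 upstream region at chr15:102005404-102005653 (minus strand) and the middle region between them at chr15:102016839-102017088 (plus strand). The Krt14 promoter is at chr11:100207549-100207798, the Krt14 upstream region at chr11:100209852-100210101, the Krt16 promoter at chr11:100249059-100249308 and the Krt5 upstream region at chr15:101715937-101716186, all on the minus strand.
Krt18 promoter: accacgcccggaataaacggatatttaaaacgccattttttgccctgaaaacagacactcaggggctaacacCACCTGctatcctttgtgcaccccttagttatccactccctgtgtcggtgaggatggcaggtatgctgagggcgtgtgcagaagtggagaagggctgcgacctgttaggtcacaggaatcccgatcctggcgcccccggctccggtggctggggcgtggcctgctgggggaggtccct
Krt8 upstream: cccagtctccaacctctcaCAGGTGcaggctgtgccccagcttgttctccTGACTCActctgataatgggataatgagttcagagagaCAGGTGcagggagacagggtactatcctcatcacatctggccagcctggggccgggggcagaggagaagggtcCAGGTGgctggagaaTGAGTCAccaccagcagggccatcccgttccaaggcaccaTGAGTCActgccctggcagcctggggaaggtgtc
Krt8-Krt18 middle: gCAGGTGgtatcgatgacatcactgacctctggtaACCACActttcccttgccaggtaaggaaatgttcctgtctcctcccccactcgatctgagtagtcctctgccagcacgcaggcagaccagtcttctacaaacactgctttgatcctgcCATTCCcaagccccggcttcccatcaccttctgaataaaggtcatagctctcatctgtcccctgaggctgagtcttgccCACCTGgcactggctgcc
Krt14 promoter: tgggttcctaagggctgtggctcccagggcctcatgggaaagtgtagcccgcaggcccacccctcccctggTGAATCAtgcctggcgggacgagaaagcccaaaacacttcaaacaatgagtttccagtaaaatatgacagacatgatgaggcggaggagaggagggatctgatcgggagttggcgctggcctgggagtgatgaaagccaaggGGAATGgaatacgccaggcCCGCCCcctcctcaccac
Krt14 upstream: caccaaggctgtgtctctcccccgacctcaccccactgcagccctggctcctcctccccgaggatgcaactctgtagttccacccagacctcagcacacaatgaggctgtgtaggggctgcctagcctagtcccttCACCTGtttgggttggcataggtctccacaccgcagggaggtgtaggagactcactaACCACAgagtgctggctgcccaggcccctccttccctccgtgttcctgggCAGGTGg
Krt16 promoter: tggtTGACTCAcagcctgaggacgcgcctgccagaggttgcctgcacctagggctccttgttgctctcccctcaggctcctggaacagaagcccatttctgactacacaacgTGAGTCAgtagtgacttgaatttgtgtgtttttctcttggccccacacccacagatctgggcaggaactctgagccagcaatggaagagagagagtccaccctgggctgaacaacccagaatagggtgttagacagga
Krt5 upstream: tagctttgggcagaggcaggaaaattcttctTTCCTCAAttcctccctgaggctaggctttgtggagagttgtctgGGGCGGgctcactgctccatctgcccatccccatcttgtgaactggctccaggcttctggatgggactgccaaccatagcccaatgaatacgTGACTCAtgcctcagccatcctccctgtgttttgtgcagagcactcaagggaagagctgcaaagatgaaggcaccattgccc

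Of these stretches, the Krt8 upstream region held the most matches, 3 to AP-1 and 3 to the E-box. The Krt16 promoter held 2 to AP-1, and the Krt18 promoter held 1 to the E-box and no other. No match overlapped another. Such letters are common: AP-1 letters were found in the central 250 bp of 28.0% of all 183173 merged regions and TEAD letters in 18.6%, and the E-box in 16.5%. Among the 179 merged regions of the keratin clusters, 58 (32.4%) held AP-1 letters, 32 (17.9%) TEAD letters and 48 (26.8%) the E-box. In the 250 bp upstream of the outermost TSS, 18 of 49 keratin genes (36.7%) held the E-box, against 17.4% of all protein-coding genes, whereas 6 (12.2%) held KLF/SP letters, against 39.0%. For GATA the corresponding shares were 18.4% and 9.12%. These shares describe the letters and say nothing of binding.

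Krt18 (chr15:102028180-102032027, plus strand) encodes the type I partner of Krt8 in luminal cells. The peak over its TSS (chr15:102028027-102028276) ranked at 56.6% (BM1) and 52.2% (BM5) among WT luminal peaks and at 57.6% (BM2) and 51.0% (BM6) among WT basal-like peaks. Of the Lats1-CKO libraries BM7 alone had it, at 26.2%, and BM3, BM4 and BM8 had none. In such bulk libraries a site that is less open and a smaller share of cells in which it is open cannot be told apart. The WT and Lats1-CKO libraries did not overlap: the means were 54.4% and 6.55%, a difference of -47.8 percentage points (exact permutation test over 4 against 4 libraries, two-sided, p = 0.0286, the smallest that this design allows). Adjusted over the 14571 genes with a promoter peak in any library the p-value was 1, and no gene passed. Without BM3 the means were 54.4% and 8.74%. Between the populations the difference was -6.60 points (basal-like minus luminal, exact permutation p = 0.743).

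Krt18 was the only keratin gene whose genotypes did not overlap. Among all tested genes, 0.721% lay lower in all Lats1-CKO than in all WT libraries and 0.398% lay higher, and the keratin counts were 1 and 0 of 16. Without BM3 those shares were 0.79% and 10.3%, and Krt18 and Krt10 were the 1 keratin gene in each direction. Between populations no keratin gene separated: of all tested genes 0.727% were higher and 0.206% lower in all basal-like libraries, and 0.728% and 2.88% without BM3. The median difference between genotypes (Lats1-CKO minus WT) was 2.01 points over the 16 keratin genes and -1.28 over all tested genes, and 8.87 and 4.84 without BM3.

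Krt8 encodes the type II partner of Krt18. Its highest peak within 1 kb stood at 75.7% and 96.3% in the WT luminal pair BM1 and BM5 and at 65.5% and 31.4% in the WT basal-like pair BM2 and BM6. The Lats1-CKO libraries had 54.1% (BM3), 29.5% (BM7), 50.3% (BM4) and 43.0% (BM8). Both WT luminal libraries were above the other 6, a comparison that was not planned or tested and whose share over all genes was not counted. The mean was 67.2% in WT and 44.2% in Lats1-CKO, a difference of -23.0 points that did not exceed the spread (exact permutation p = 0.171). Basal-like and luminal libraries differed by -16.4 points (exact permutation p = 0.343). Within 5 kb, where a peak inside the gene raises BM6 to 63.4% and BM7 to 46.9%, all 4 WT libraries were above all 4 Lats1-CKO ones (exact permutation p = 0.0286, adjusted p = 1). In that wider window Krt8 and Krt18 were 2 of 34 keratin genes tested that were lower in all Lats1-CKO libraries, against 0.651% of all genes tested, and none was higher, against 0.364%.

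Behind the Krt8 values stood more than 1 peak. The peak present in all 8 libraries was the upstream region printed above, centred 1047 bp from the TSS, in a part of the long non-coding gene Gm36026 that holds no exon. The peak over the Krt8 TSS itself (chr15:102004311-102004516) was called in 4 libraries only, BM1 (75.7%), BM5 (37.8%), BM2 (35.1%) and BM7 (12.6%). BM6, BM3, BM4 and BM8 lacked it. Of the libraries without a peak at the Krt18 TSS, BM3, BM4 and BM8 also lacked this one.

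**Figure D3:**
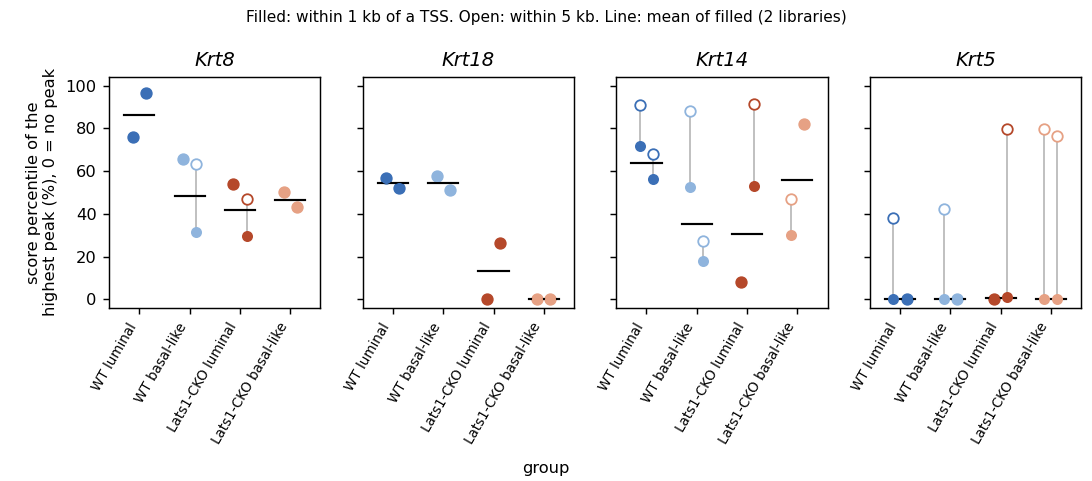
Score percentile (%) of the highest peak at the luminal pair Krt8 and Krt18 and the basal pair Krt14 and Krt5, by group. Filled points are peaks within 1 kb of a TSS and open points within 5 kb, 1 pair for each library, and the line is the mean of the 2 filled points. Krt18 shows the 4 WT libraries at 51.0% to 57.6% and 3 of 4 Lats1-CKO libraries at 0, and Krt5 has almost no filled point above 0 but open points up to 79.9%.

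The 23.7 kb between the Krt8 and Krt18 genes held a group of neighbouring peaks between 12.1 and 9.88 kb upstream of Krt18. The outer ones were among the few regions between genes found in all 8 libraries. The one nearer Krt8 (chr15:102016091-102016409) stood at 82.9% and 64.5% in WT luminal (BM1, BM5), 83.7% and 17.9% in WT basal-like (BM2, BM6), 34.9% and 77.3% in Lats1-CKO luminal (BM3, BM7) and 93.5% and 29.2% in Lats1-CKO basal-like libraries (BM4, BM8). The one nearer Krt18 (chr15:102017840-102018305) stood at 72.7% and 88.4%, 77.4% and 10.3%, 64.4% and 69.4%, and 5.71% and 47.4% in the same order. The 2 libraries of the WT basal-like and Lats1-CKO basal-like groups lay far apart at both.

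The middle peak of the group (chr15:102016726-102017202, printed above) was called in all 4 WT libraries and in both Lats1-CKO luminal ones, namely BM1 (61.8%), BM5 (69.8%), BM2 (49.3%), BM6 (17.1%), BM3 (27.1%) and BM7 (38.1%). It was absent from both Lats1-CKO basal-like libraries. BM3, with the fewest peaks of all, had it. Of the 10 cluster regions found in exactly 6 libraries, 2 lacked precisely BM4 and BM8, while 167 of 11025 such regions of the genome did (1.51%). The other was chr11:100067712-100068035, inside Gm11571 and 17322 bp upstream of Krt31, at 39.8% to 81.9% in the 6. This pattern was noticed after the values were seen and was not tested. The promoter peaks of Epcam and of Cdh1, the E-cadherin gene of epithelial cells, were also absent from exactly these 2 libraries, and that of Krt7 from these and from BM3 and BM6. Epcam and Cdh1 were looked up singly, and the share of all genes with their pattern was not counted. In BM4 and in BM8, 9 of 18 luminal genes had a promoter peak.

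**Figure D4:**
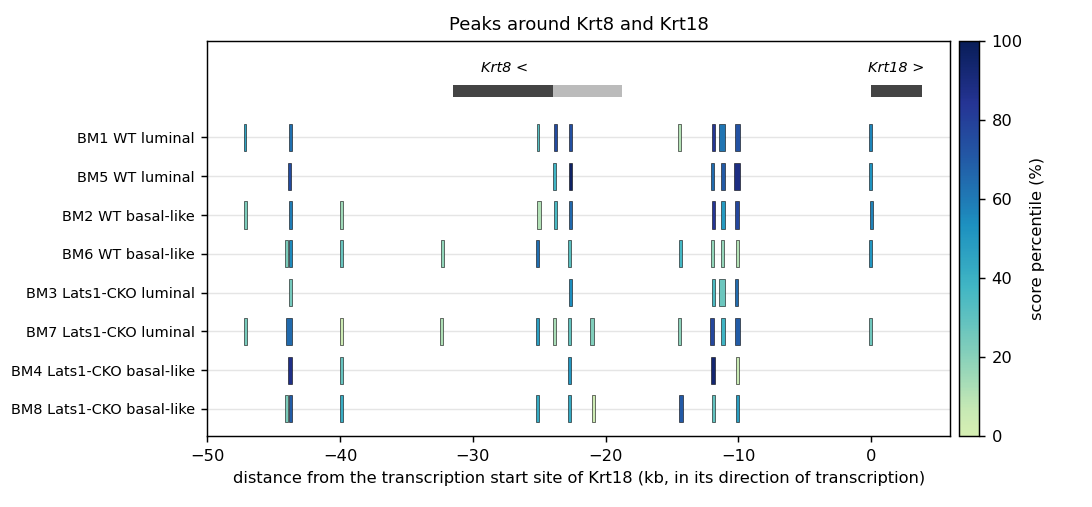
Peaks of each library (rows) around Krt8 and Krt18 by distance from the Krt18 TSS (kb), coloured by score percentile (%), with narrow peaks drawn at a minimum width. Genes are dark bars with the direction of transcription, and the grey bar is Gm36026. The peak at 0 is missing in BM3, BM4 and BM8, and the middle one of the group near -11 kb is missing in BM4 and BM8.

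The other simple-epithelial keratins varied more between libraries of a group. Krt7, found in ducts and other simple epithelia, ranked at 88.1% (BM1), 54.0% (BM5), 57.0% (BM2) and 57.4% (BM7) and had no peak in BM6, BM3, BM4 or BM8. That peak lay over an internal TSS about 1.3 kb into the gene and not over its outermost one. All 3 luminal libraries other than BM3 had it and 1 of 4 basal-like ones did (basal-like minus luminal -35.6 points, exact permutation p = 0.257, and -52.2, p = 0.0857, without BM3). Krt19, a luminal keratin without the usual tail domain, reached 67.5% in BM4 but only 2.89% in BM1 and 1.83% in BM8, and had no peak in the other 5. The libraries with a Krt19 peak belonged to 2 groups, and the peaks were not all at the same place.

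Krt14, the type I keratin of basal cells, had a promoter peak in every library, luminal ones included. Over and just upstream of the first exon the percentiles were 36.6% (BM1), 38.5% (BM5), 23.8% (BM2), 14.99% (BM6), 8.28% (BM3), 35.4% (BM7), 29.98% (BM4) and 62.3% (BM8). Both WT basal-like libraries lay below both WT luminal ones, a comparison that was not planned or tested and whose share over all genes was not counted. The Lats1-CKO populations overlapped, and the highest and the lowest value were both from Lats1-CKO. The highest peak within 1 kb was mostly another one, 2218 bp into the gene near an internal TSS (chr11:100205068-100205593), so that the values by the 1 kb rule were 71.6% and 56.2% (WT luminal), 52.6% and 17.9% (WT basal-like), 8.28% and 52.9% (Lats1-CKO luminal) and 29.98% and 82.0% (Lats1-CKO basal-like). By that rule the genotypes differed by -6.26 points (exact permutation p = 0.8) and the populations by -1.62 (exact permutation p = 0.943), and with the outermost TSS alone both signs turned, to 5.51 and 3.08.

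A region upstream of Krt14 (chr11:100209847-100210107, printed above) was called in 7 libraries. It ranked high in BM1 (90.9%), BM2 (88.1%) and BM7 (91.2%), lower in BM5 (67.7%), BM8 (41.2%) and BM6 (27.1%), and near the bottom in BM3 (1.17%). BM4 had no peak there. In 3 of 4 groups there was therefore a library far above the other one of the same group. It overlaps no gene, and its median over the 7 libraries with a peak was 67.7%. By such medians it was the highest-ranking region between genes on chromosome 11 present in at least 6 libraries.

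Krt16, a type I keratin induced in wounded and hyperproliferative epithelia, had the highest median percentile of the family over the 8 libraries (86.5%). Its single promoter peak stood at 93.2% (BM1), 87.4% (BM5), 94.5% (BM2), 45.1% (BM6), 5.31% (BM3), 85.7% (BM7), 81.7% (BM4) and 95.6% (BM8). In 6 of 8 libraries it was above 81%, and BM6 and BM3 were apart from them. The genotypes differed by -12.98 points (exact permutation p = 0.571), and by 7.61 without BM3 (p = 0.886). The neighbouring stress keratin Krt17 had a peak in BM7 only, at 30.4%, and Krt42, next to it, in BM7 only, at 69.6%. In the sequence within 1 kb of the Krt16 TSS, 65.1% of all 31-base words occurred once in the genome, the lowest share of the family, so that reads there may be lost under unique alignment.

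**Figure D5:**
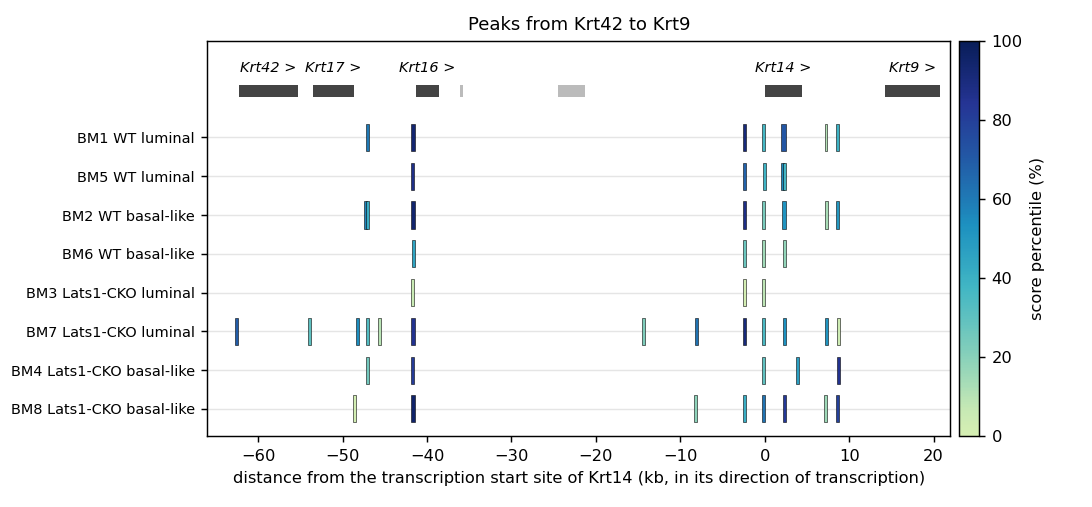
Peaks of each library (rows) from Krt42 to Krt9 by distance from the Krt14 TSS (kb), coloured by score percentile (%), with narrow peaks drawn at a minimum width. Genes are dark bars with the direction of transcription and grey bars are pseudogenes. Peaks at Krt16 (near -42 kb) and at the Krt14 TSS appear in all 8 rows, and the region upstream of Krt14 in all but BM4.

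Krt5, the type II partner of Krt14, was nearly without a promoter peak. The only one within 1 kb was in BM7, at 1.23%. Within 5 kb, peaks appeared in BM1 (38.1%), BM2 (42.0%), BM7 (79.7%), BM4 (79.9%) and BM8 (76.3%), and in neither BM5, BM6 nor BM3. The genotypes overlapped in this window (Lats1-CKO minus WT 39.0 points, exact permutation p = 0.229). A single region 3164 bp upstream of the TSS (chr15:101715935-101716189, printed above) held peaks of all 5, at 38.1%, 42.0%, 62.7%, 79.9% and 70.5%. Its partner Krt14 had a promoter peak in all 8 libraries, so that both members of the basal pair had one in BM7 alone.

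Among the keratins of stratified epithelia, Krt80, made in many differentiating epithelia, had a promoter peak in all libraries but BM3. Its percentiles were 43.8% and 60.1% in WT luminal, 38.8% and 50.1% in WT basal-like, 0 and 58.1% in Lats1-CKO luminal and 71.7% and 78.0% in Lats1-CKO basal-like libraries. Both Lats1-CKO basal-like libraries were above the other 6. Such a comparison of a single group with the rest was not planned or tested, and its share over all genes was not counted. With BM3 the genotypes differed by 3.72 points (exact permutation p = 0.914), and without it by 21.03 (exact permutation p = 0.0857).

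Krt10, the suprabasal partner of Krt1 in epidermis, stood at 42.4% in BM1, 18.9% in BM2, 34.7% in BM6, 82.0% in BM7, 82.6% in BM4 and 81.6% in BM8, with no peak in BM5 or BM3. All 3 Lats1-CKO libraries other than BM3 were within 1 point of each other and above every WT library. The difference was 37.6 points over all 8 libraries (exact permutation p = 0.143) and 58.1 without BM3 (exact permutation p = 0.0286, adjusted p = 0.617), where 10.3% of all tested genes were likewise higher in Lats1-CKO. The peak lay about 3.3 kb inside the gene at an internal TSS, and no library had a peak within 1 kb of the outermost Krt10 TSS. Krt1, its partner, had none within 5 kb.

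Krt13, of internal mucosae, had a peak in BM2 (46.7%), BM7 (63.8%) and BM4 (84.3%), 1 library in each of 3 groups. Krt79, of the upper hair follicle, had one in BM1 (21.6%), BM7 (81.9%) and BM8 (41.2%). Neither gene separated genotypes or populations (exact permutation p between 0.429 and 0.714). Of the hair keratins, Krt32 was at 66.4% in BM1, 8.20% in BM5, 38.8% in BM2, 79.2% in BM7 and 8.57% in BM8, at an internal TSS and not at the outermost one. Krt86 had a peak in BM1 (25.3%), BM2 (29.3%), BM6 (45.1%), BM7 (49.98%) and BM4 (78.1%). Krt87 had weak ones in BM1 (2.29%), BM2 (13.3%) and BM6 (27.8%), all WT. The 31-base words within 1 kb of the TSS that occur once in the genome made up 73.0% for Krt86 and 81.6% for Krt87, hair keratins with close relatives, whose reads may be lost or split. The median of that share, taken around the outermost TSS, was 95.6% over the 16 genes with a peak at any TSS and 98.2% over the 33 without.

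Counted over the family, 12 (BM1) and 7 (BM5) keratin genes had a promoter peak in WT luminal and 11 (BM2) and 8 (BM6) in WT basal-like cells. In Lats1-CKO the numbers were 3 (BM3) and 14 (BM7) for luminal and 8 each (BM4 and BM8) for basal-like cells. The genotypes differed by -1.25 genes (Lats1-CKO mean 8.25, WT 9.5) and the populations by -0.25, both less than the spread between libraries (SD 3.6 and 3.67). Without BM3 the differences were 0.5 and -2.25 genes, and without BM7 they were -3.17 and 1.42. In the Lats1-CKO luminal group the 2 libraries were the lowest and the highest of all 8.

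Between the genes the clusters held more peaks than the genome at large. The cluster on chromosome 11 spans 1.04 Mb (chr11:99232761-100269871) and also holds 23 genes of keratin-associated proteins, and that on chromosome 15 spans 0.685 Mb (chr15:101347444-102032027). Together they held 73 (BM1) and 46 (BM5) peaks in WT luminal, 71 (BM2) and 46 (BM6) in WT basal-like, 13 (BM3) and 105 (BM7) in Lats1-CKO luminal, and 81 each (BM4, BM8) in Lats1-CKO basal-like libraries. Those between annotated genes and over 1 kb from any TSS numbered 39 and 21, 37 and 21, 6 and 61, and 45 and 44. Per Mb of such sequence this was 5.83 to 59.3 peaks, 1.36 to 2.57 times the density between genes of the whole genome in the same library, and above it in each of the 8. The genome density takes in all sequence between genes, however far from a gene. No other gene-dense region was compared, so the excess cannot be called particular to the keratin clusters. The counts between genes differed by 9.5 between genotypes (Lats1-CKO minus WT, SD 17.9) and by 5 between populations (basal-like minus luminal, SD 18.5), less than the spread between libraries. With 1 library left out the difference between genotypes lay between 2.17 (without BM7) and 20.5 (without BM3), and that between populations between -3.58 (without BM3) and 14.8 (without BM7). Within WT, BM1 and BM2 held more such peaks than BM5 and BM6.

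The chromosome 15 cluster carried the higher density. Between its genes there were 14.4 to 107 peaks per Mb, against 1.47 to 35.2 on chromosome 11, and it was the denser of both clusters in every library. BM7 was the highest on both chromosomes and BM3 the lowest. In BM7, BM4 and BM8 the chromosome 15 density was 107, 77.7 and 74.9 per Mb, above the 60.5, 23.0, 51.8 and 40.3 of BM1, BM5, BM2 and BM6. The 3 libraries with the most peaks in total were also the 3 with the most here, and the part of library depth in these counts was not tested.

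Merged over libraries, the clusters held 179 regions, 102 of them between genes. Of all 179, 75 (41.9%) were called in 1 library only, 25 (13.97%) in at least 6 and 8 (4.47%) in all 8. In the genome these shares were 44.5%, 19.4% and 5.95% of 183173 regions. No cluster region was present in all WT and no Lats1-CKO libraries or the reverse, and none in all luminal and no basal-like libraries or the reverse. Each of these patterns was rare in the genome too, with at most 0.0906% of regions, so that the counts of 0 say nothing about the clusters. Leaving BM3 aside, 4 regions (2.23%, against 1.495% in the genome) were in all 3 other Lats1-CKO libraries and no WT one, near Krt10, Krt32, Krt72 and Krt78.

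The regions between genes shared by most libraries lay mainly at the Krt8 end of chromosome 15. Beside those between Krt8 and Krt18, a region 20169 bp downstream of the Krt8 TSS (chr15:101984049-101984578) was called in all 8 libraries, at 24.3% in BM3 and 55.4% to 87.4% in the others. A region 23251 bp upstream of Krt78 (chr15:101977387-101977690) was called in all but BM3, at 54.0% to 90.0%. Its median over the 7 libraries with a peak was 76.8%, the highest such median of the regions between genes found in at least 6 libraries. A region 7794 bp downstream of the Krt88 TSS (chr15:101455349-101455728) was called in 6, at 12.3% to 84.9%. On chromosome 11, besides the region upstream of Krt14, one 31174 bp upstream of Krt40 (chr11:99574271-99574394) was called in 7 at 22.5% to 68.8%, and one 15180 bp downstream of the Krt25 TSS (chr11:99307686-99307857) in 6 at 34.5% to 70.4%. Krt40, Krt25, Krt78 and Krt88 had no promoter peak in any library.

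Genes that work with keratins or mark other cells were counted in the same way. Of all protein-coding genes, 34.3% (BM3) to 58.7% (BM7) had a promoter peak, with 56.7% in BM4 and 57.8% in BM8. Of 18 genes of desmosomes and filament linkers, 12 (BM3) to 18 (BM7) had a promoter peak, and of 15 other intermediate filament genes 4 (BM3) to 10 (BM7). Of 18 luminal genes, 16 and 15 had one in WT luminal, 14 and 11 in WT basal-like, 8 and 16 in Lats1-CKO luminal and 9 and 9 in Lats1-CKO basal-like libraries. Of 16 basal genes the counts were 13 and 10, 12 and 12, 6 and 13, and 13 and 12. Fibroblast markers had a peak for 7 and 5 of 10 genes in BM4 and BM8 and for 0 to 4 in the others. Pdgfra and Pdgfrb were higher in all basal-like than in all luminal libraries, as were 0.727% of all tested genes. Immune markers had one for 0 (BM3) to 6 (BM8) of 10 and endothelial markers for 0 to 4 of 8. Of the linker genes Dst was likewise higher in all basal-like libraries. Of the luminal genes Muc1 was higher and Cldn3 lower in all Lats1-CKO than in all WT libraries, against 0.398% and 0.721% of all tested genes. The mesenchymal filament gene Vim had one in all but BM3. In BM4 and BM8, where Krt18 and Krt7 lacked a peak, these fibroblast counts were the highest. BM3, with the fewest peaks of all, also lacked both and had no fibroblast marker with a peak. BM6 lacked the Krt7 peak and had 3 such markers. The part of other cell types in the keratin values was not tested.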

How the data were processed

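ATAC-seq peak lists of 8 libraries, 2 for each of the 4 groups, were analysed. Per the submitters' processing notes and the paper's methods, the authors used cutadapt for trimming, Bowtie 1.0.0 for unique alignment to mm10 and Picard 2.3.0 against duplicates, and called peaks in each library with MACS2 (2.1.1.20160309 in the notes; the methods name an earlier version). The deposited score of each peak, taken to be that of MACS2 from its values, was at least 13 and is not normalized between libraries. By its methods the study left out 1 replicate of the Lats1-CKO luminal group for poor quality without naming it in its text, so all libraries were kept and each was left out in turn.

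For each gene the highest score percentile of a peak within 1 kb of any GENCODE M21 TSS was used, with 0 for no peak and an overlap of at least 1 bp. Groups of 4 libraries were compared by two-sided exact permutation tests on 14571 genes, with Benjamini-Hochberg adjustment. The smallest p-value is 0.0286, so no gene could pass the adjusted threshold of 0.05. A gene was called where the 2 groups did not overlap. The code was run on simulated percentiles with planted shifts large enough to separate the groups completely. Those values held no missing peaks, so the run checked the code and not its behaviour on lists like these. Clusters ran from the first to the last keratin gene of a chromosome. Overlapping or adjoining peaks of the 8 lists were joined into merged regions. Sequence came from GRCm38.p6 (RefSeq). Every keratin gene with a peak within 1 kb was named, with the 4 marker genes and, for each cluster, up to 5 regions between genes that were found in at least 6 libraries. The members, lists and tests were chosen with earlier results of these data known. Alternatives were peaks within 5 kb, the 10000 highest-scoring peaks or those above the median score, peak centres, coding or outermost TSSs, all genes, clusters extended by 50 kb, sequence outside keratin genes, and each library left out. Scripts ran under Python 3.11.15 with numba 0.67.0, pandas 2.3.3, numpy 2.4.6 and scipy 1.17.1. Other data types of the study were not used here.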

Additional observations from a re-analysis of the deposited data

Results flagged for a closer look

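By a rule that flags about 1 in 20 groups of libraries by chance where values are not tied, a pair of values was flagged as apart from the rest of their group. BM3 held 14753 peaks, far below the other 3 Lats1-CKO libraries, and its keratin counts were the lowest of all 8. Among the 4 basal-like libraries, BM2 had 11 keratin genes with a promoter peak, whereas the other 3 had 8 each. With 3 tied counts any other count would be flagged, and the luminal libraries BM1 (12) and BM7 (14) had more.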

How the results depend on the processing

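With 4 against 4 libraries and no read counts, only a complete separation can reach the smallest exact permutation p of 0.0286, and a missing peak may be a closed site or a shallow library. The differences in keratin genes with a promoter peak and in peaks between genes stayed within 1 SD (that of the main counts) of the main value under all alternatives. With the 10000 highest-scoring peaks each library held only 0 to 2 such genes or peaks, so that limit could not be passed there. Nor could it be passed with 1 library left out, since dropping 1 of 4 always moves such a difference by less than 1 SD. Those settings therefore say nothing about how stable the differences are. Some signs turned: within 5 kb the promoter difference was 1.25 genes between genotypes and 1.75 between populations. The numbers of all genes without overlap moved. Between genotypes it was 163, 95 with the 10000 highest-scoring peaks, and 267 to 1619 with 1 library left out (the highest without BM3). Between populations it was 136, 72 with the 10000 highest-scoring peaks, and 206 to 628 with 1 library left out (the highest without BM7). Complete separation is easier with fewer libraries, so the counts with 1 library left out are not on the scale of the main ones. The Krt18 difference between genotypes kept its sign and p in each alternative that gave a value. That of Krt8 separated within 5 kb (-26.6) and without BM6 (-34.9). Signs turned for Krt5 between populations within 5 kb (20.1), Krt8 between populations by peak centres (8.43), Krt14 between genotypes (5.51) and populations (3.08) with coding or outermost TSSs alone, and, with 1 library left out, Krt14 between genotypes (-19.2 to 5.42) and populations (-14.6 to 7.63) and Krt18 between populations (-17.9 to 2.45). None of those that turned passed a test, and the cause was not tested. The outermost TSS was chosen as an alternative after seeing the data. No paired analysis was possible because the labels give library names (BM1 to BM8) but no replicate numbers.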

Other observations

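In the windows outside the rule, Krt33a, a hair keratin whose symbol ends in a letter, had a promoter peak in BM7 only (26.2%) and Krt33b in BM5 only (8.20%), while the stress keratins Krt6a and Krt6b had none. Among cluster regions inside other genes, over 1 kb from any TSS and found in all 8 libraries, the highest-ranking by median on chromosome 11 lay within Gm11571 (chr11:100055692-100056180), at 66.4% to 94.6%, and its counterpart on chromosome 15 lay within Gm35853 (chr15:101388273-101388513), at 52.1% to 79.9%. Both were chosen after their values were seen. The regions in both Lats1-CKO basal-like libraries and in no other numbered 2 in the clusters (1.12%, against 1.98% in the genome), and 1 of them was at Krt19.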
